A study of Danio rerio with 8 samples.

Results

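The genes described here make, break down and sense retinoic acid, and their transcripts were measured in the injured heart ventricle of adult zebrafish with and without a mutation of cox7a1. The 10 genes were the retinaldehyde dehydrogenases aldh1a2 and aldh1a3, the retinol dehydrogenase rdh10a, the retinoic acid hydroxylases cyp26a1, cyp26b1 and cyp26c1, and the receptors raraa, rarab, rarga and rxraa. They were chosen by name from 32520 gene rows, with earlier results of these data known, and each of the 10 had a row. Wildtype pools came from siblings of the cox7a1-/- fish, whose genotype the labels also write as Cox7a_mut. The kind of lesion and the sex and exact age of the fish are not given here. Both genotypes were injured, and ventricles were taken 7 days later. Each genotype had 4 pools of 5 ventricles, so the spread between single fish and between injured and uninjured muscle was not measured, and there were no uninjured hearts. In pooled tissue, fewer cells of a type and less RNA per cell cannot be told apart.

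Retinoic acid is made from retinol (vitamin A) in a pair of oxidation steps. Retinol dehydrogenases such as Rdh10 make retinaldehyde, and aldehyde dehydrogenases of the Aldh1a family turn it into retinoic acid. Enzymes of the Cyp26 family of cytochromes P450 hydroxylate retinoic acid and so clear it from cells. Retinoic acid binds Rar receptors, which pair with Rxr receptors on DNA and control transcription. In the zebrafish heart, aldh1a2 is known as a gene that epicardium and endocardium switch on after injury, and retinoic acid signalling is needed there for heart muscle cells to divide.

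The pools held between 41556101 and 69057989 counts. The targeted gene cox7a1 lay between 209.7 and 285.9 CPM (counts scaled to a common library size) in wildtype pools. Mutant replicates 1, 2 and 3 held 59.5, 113.1 and 88.5 CPM of cox7a1, and mutant replicate 4 held 193.9 CPM. Its adjusted p of 0.0776 (edgeR) did not pass the threshold of 0.05. All 9 cardiomyocyte markers that were matched, of 13 listed, were present, with summed levels of 33360 to 53360 CPM over the 8 pools. The summed levels of 14 lists of cell type markers overlapped between the genotypes in each list. Of 84 markers tested 1 passed the threshold, cspg4, a pericyte marker (log2 fold change 0.86, adjusted p = 0.0238, edgeR). Of all tested genes, 2.02% passed. Some lists still leaned in direction. All 5 red blood cell markers tested had positive values (median log2 fold change 0.57), and 2 of 9 macrophage markers did (median -0.25). No marker of either list passed.

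The retinoic acid hydroxylase gene cyp26b1 (ENSDARG00000077121; GRCz11, chromosome 7, 25323742 to 25348597, plus strand, 3876 exonic bases) was the only member that passed the test, and it was lower in mutant ventricles. Wildtype pools held 51.4, 87.6, 44.0 and 47.5 CPM in replicates 1 to 4, and mutant pools held 32.0, 16.3, 25.9 and 13.8 CPM. The ranges of the genotypes did not meet, with all 4 mutant pools at the lower end, and wildtype replicate 2 stood well above the other wildtype pools. The means were 57.6 ± 20.2 CPM in wildtype and 22.0 ± 8.48 CPM in mutant pools (SD, n = 4). Mutant pools were at 0.381-fold of wildtype, a log2 fold change of -1.39 ± 0.285 (SE) with a 95% interval of -2.02 to -0.77. The adjusted p over all tested genes was 0.0356 (edgeR's quasi-likelihood test with Benjamini-Hochberg adjustment). An exact two-sided permutation test of the 8 log2 levels returned 0.0286, and no smaller p can arise from 4 and 4 pools.

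Of the 10 members, 7 passed the filter on low counts. Among those 7 tested, 1 was called lower and 0 higher, while 0.88% of all tested genes were called lower, 1.14% higher and 2.02% in either direction. DESeq2 and limma-voom also called cyp26b1 alone among the members. DESeq2 called 2.84% of all its genes higher, 2.15% lower and 4.99% in either direction. The shares for limma-voom were 1.25% higher, 0.813% lower and 2.06% in either direction. Of the 7, only cyp26b1 had genotypes that did not overlap, against 6.27% of all tested genes on the higher and 5.48% on the lower side. The estimate for cyp26b1 was negative whichever pool was left out, but its call held only without wildtype replicate 4 or mutant replicate 1. It was lost without wildtype replicate 1 (adjusted p = 0.0591), wildtype replicate 2 (0.0867), wildtype replicate 3 (0.0750), mutant replicate 2 (0.0892), mutant replicate 3 (0.0901) and mutant replicate 4 (0.0534), and with libraries scaled by their totals alone (0.0537). Without wildtype replicate 2, the pool with the highest cyp26b1, the log2 fold change was -1.12, and over all left-out pools it ran from -1.64 to -1.12.

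**Figure D1:**
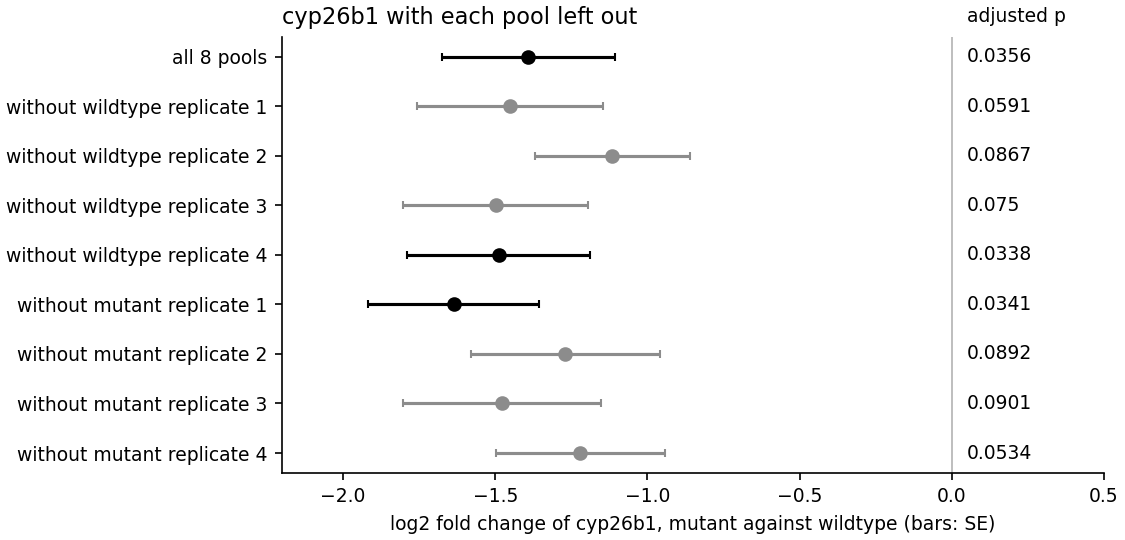
The log2 fold change of cyp26b1 (x axis, mutant against wildtype; points are estimates and bars are standard errors) is shown for all 8 pools and with each pool left out, with edgeR adjusted p-values at the right and black marking those under 0.05. Every estimate lies between -1.64 and -1.12, and 2 of the 8 left-out fits keep the call.

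The other hydroxylase genes were close to absent in both genotypes. The gene cyp26a1, which in other tissues is a well known target of retinoic acid itself, had 7, 9, 5 and 17 reads in wildtype pools and 1, 6, 10 and 16 in mutant pools. Its counts overlapped between the genotypes, with sums of 38 in wildtype and 33 in mutant pools. The gene cyp26c1 had 10, 3, 0 and 0 reads in wildtype and 3, 0, 0 and 0 in mutant pools. Both fell under the low-count filter, and at counts this low a modest difference of either could not be detected. Per kilobase of exon, cyp26b1 made up between 96.3% and 99.7% of the summed Cyp26 transcript level in each of the 8 pools. The Cyp26 transcript level in the ventricle was thus nearly that of cyp26b1 alone, and protein was not measured.

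**Figure D2:**
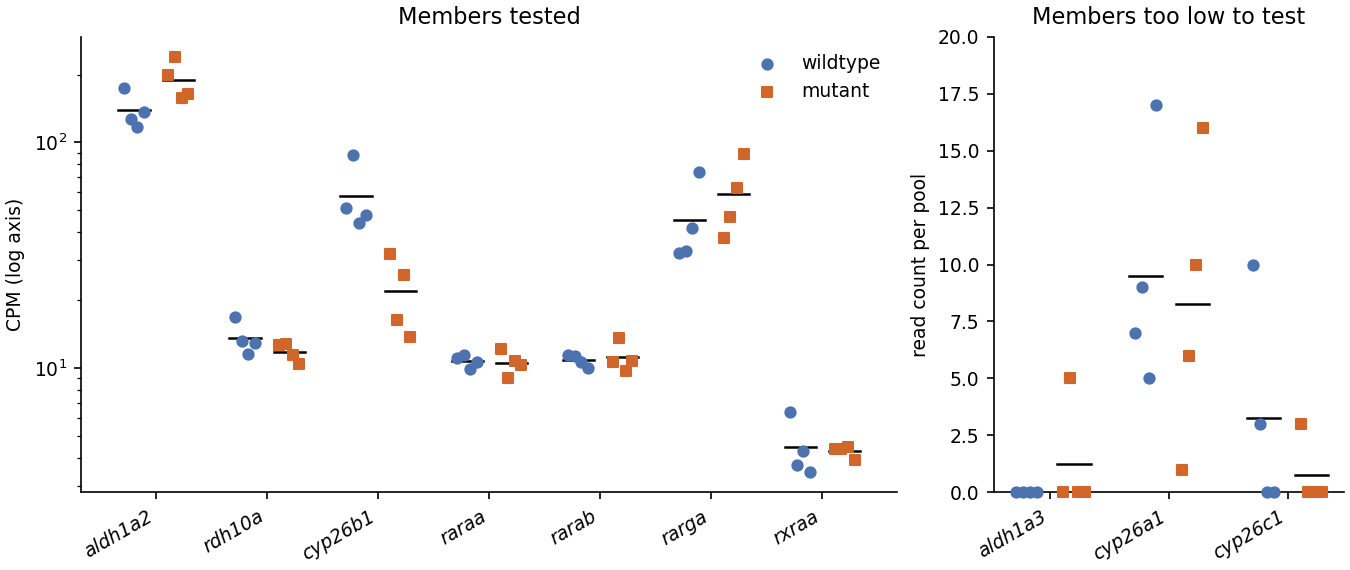
Each point is 1 pool and each black line a mean, with wildtype in blue circles and mutant in orange squares. The left panel gives CPM on a log axis for the 7 members tested and the right panel read counts for the 3 members too low to test. Only cyp26b1 has its genotypes apart, at 44.0 to 87.6 CPM in wildtype and 13.8 to 32.0 CPM in mutant pools.

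The retinaldehyde dehydrogenase aldh1a2 (ENSDARG00000053493; GRCz11, chromosome 7, 30326184 to 30367650, minus strand, 3734 exonic bases), which carries out the last step of retinoic acid synthesis, was the most abundant member per length in every pool. Wildtype pools held 174.2, 127.6, 117.4 and 136.2 CPM and mutant pools 199.1, 238.4, 157.3 and 164 CPM. The genotypes overlapped because wildtype replicate 1 lay above mutant replicates 3 and 4, whereas the other wildtype pools lay below all mutant pools. Its log2 fold change was 0.45 ± 0.167 (SE), with a 95% interval of 0.08 to 0.82. The unadjusted p was 0.0203 and the adjusted p 0.189, so the difference did not pass the threshold (edgeR), and 18.0% of all tested genes had an unadjusted p under 0.05. The exact permutation p was 0.0857.

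The epicardium and endocardium are the cell layers known to express aldh1a2, and their markers were compared beside it. None of the 5 epicardial markers (tcf21, tbx18, wt1a, wt1b and sema3fb) passed the test, 2 of the 5 had positive values, and their summed level was 38.8 to 73.0 CPM in wildtype and 36.4 to 64.6 CPM in mutant pools. Of 12 markers of endothelium and endocardium none passed and 7 had positive values, with sums of 2125 to 2275 CPM in wildtype and 2112 to 2610 CPM in mutant pools. No marker of these lists was at 0. Their part in the levels of aldh1a2 and cyp26b1 was not tested.

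Of the other synthesis genes, rdh10a was present at a lower level and aldh1a3 was essentially not detected. The retinol dehydrogenase gene rdh10a (ENSDARG00000058730, chromosome 24), whose product makes retinaldehyde, had 16.8, 13.1, 11.5 and 12.9 CPM in wildtype and 12.6, 12.7, 11.5 and 10.4 CPM in mutant pools. The ranges overlapped, and wildtype replicate 1 was the highest pool for rdh10a. For rdh10a the log2 fold change was -0.20 ± 0.143 (SE), with a 95% interval of -0.52 to 0.11 and an adjusted p of 0.494, and without wildtype replicate 1 the value was -0.094. The retinaldehyde dehydrogenase gene aldh1a3 had no read in any wildtype pool, which allows a level of up to 0.0142 CPM over the 4 pools together, counting error alone. Its only reads were 5 in mutant replicate 2.

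**Figure D3:**
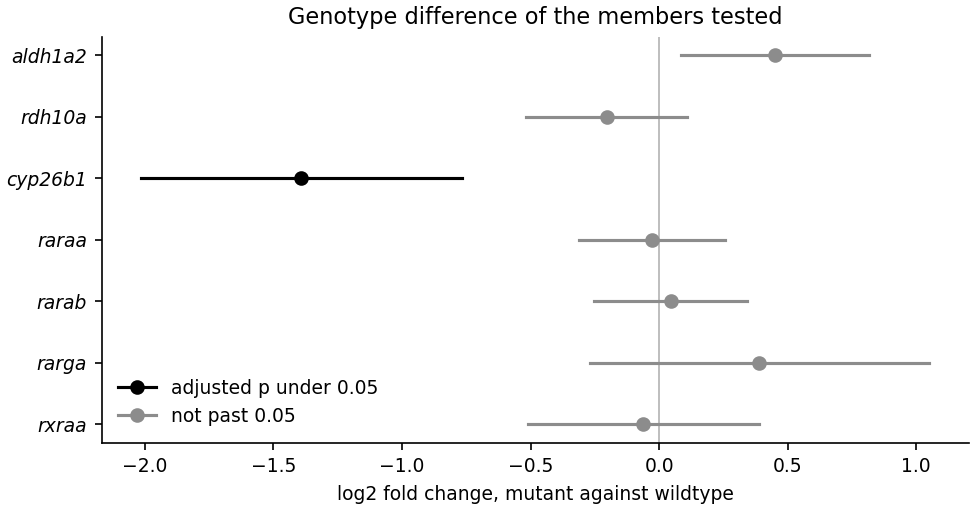
Points give the log2 fold change (x axis, mutant against wildtype) of the 7 members tested and bars their 95% intervals, with black marking an edgeR adjusted p under 0.05. The interval of cyp26b1 runs from -2.02 to -0.77, that of aldh1a2 from 0.08 to 0.82, and the other 5 intervals span 0.

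Set side by side per kilobase of exon, the synthesis gene aldh1a2 exceeded the breakdown gene cyp26b1 in each pool, and by more in mutant pools. The level of aldh1a2 divided by that of cyp26b1 was 3.52, 1.51, 2.77 and 2.98 in the wildtype pools. In the mutant pools it was 6.46, 15.2, 6.29 and 12.4. All 4 mutant ratios exceeded the highest wildtype ratio. This ratio was formed after the values were seen and is given without a test. Its denominator, cyp26b1, already had genotypes that did not overlap, so the separation of the ratio is no separate evidence. Mutant replicate 2 combined the highest aldh1a2 with one of the lowest cyp26b1 levels, while mutant replicate 4 had the lowest cyp26b1 with an aldh1a2 level near that of wildtype replicate 1.

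**Figure D4:**
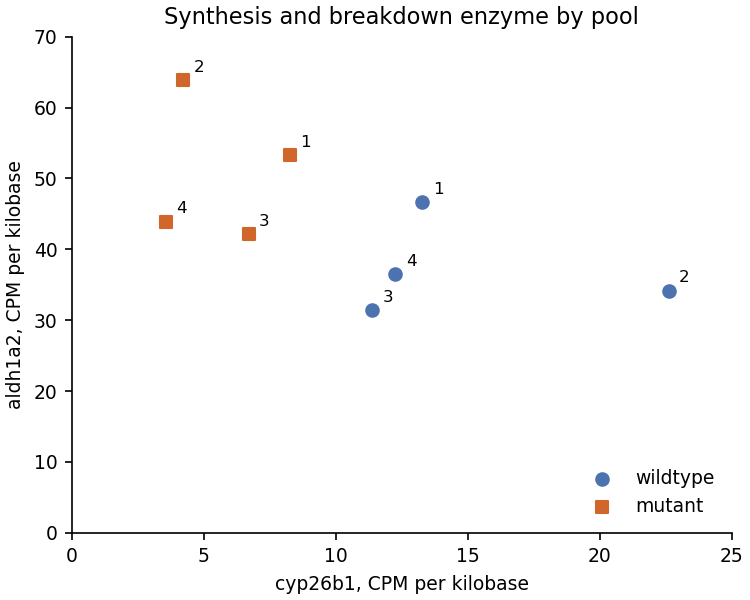
Each point is 1 pool, labelled with its replicate number, with cyp26b1 on the x axis and aldh1a2 on the y axis, both in CPM per kilobase of exon on linear axes. Mutant pools (orange squares) lie left of all wildtype pools (blue circles), at 3.55 to 8.26 against 11.4 to 22.6 for cyp26b1, and overlap with them on the aldh1a2 axis.

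The receptor genes did not pass the test. The gene raraa, a retinoic acid receptor of the alpha type, had 11.1, 11.4, 9.92 and 10.6 CPM in wildtype and 12.2, 8.98, 10.8 and 10.3 CPM in mutant pools. Its paralog rarab had 11.4, 11.3, 10.6 and 9.98 CPM in wildtype and 10.6, 13.6, 9.68 and 10.7 CPM in mutant pools. The genotypes overlapped for both, and the spread between pools was small, with SDs of 0.633 and 1.31 CPM for raraa and 0.657 and 1.7 CPM for rarab in wildtype and mutant pools (n = 4). The log2 fold changes were -0.03 for raraa (95% interval -0.31 to 0.26) and 0.04 for rarab (-0.25 to 0.34), so the intervals leave room for changes of about 0.3 log2 units in either direction.

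The gamma-type receptor gene rarga (ENSDARG00000034117, chromosome 23) was the most abundant receptor measured here and varied widely within each genotype. It had 32.3, 32.9, 41.8 and 73.7 CPM in wildtype and 37.6, 46.9, 62.9 and 89.2 CPM in mutant pools. The highest pool was replicate 4 in both genotypes, and the ranges overlapped over most of their width. For rarga the log2 fold change was 0.39 ± 0.302 (SE), with a 95% interval of -0.27 to 1.05 and an adjusted p of 0.544 (edgeR). Leaving out 1 pool moved the value of rarga between 0.12, without mutant replicate 4, and 0.72, without wildtype replicate 4, and it passed in none of these fits. The retinoid X receptor gene rxraa, whose product pairs with Rar receptors, had 6.35, 3.72, 4.26 and 3.46 CPM in wildtype and 4.35, 4.36, 4.46 and 3.91 CPM in mutant pools. Wildtype replicate 1 stood above the other 7 pools, and the log2 fold change was -0.06 (95% interval -0.51 to 0.39).

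Ordered by level per kilobase, aldh1a2 came first in all 8 pools, and rarga, cyp26b1, rdh10a, raraa, rarab and rxraa followed. The mean was 37.2 ± 6.64 CPM per kilobase for aldh1a2 in wildtype and 50.8 ± 9.99 in mutant pools (SD, n = 4). In wildtype, rarga (17.8 ± 7.69) and cyp26b1 (14.9 ± 5.22) did not differ beyond their spread, and each was the higher one in 2 of 4 pools. In mutants, rarga (23.3 ± 8.9) was above cyp26b1 (5.68 ± 2.19) in all 4 pools. The level of cyp26b1 exceeded that of rdh10a in all 4 wildtype pools but in only 2 of 4 mutant pools, where rdh10a stood at 4.92 ± 0.45. The last 3 members, raraa, rarab and rxraa, lay close together, between 1.87 and 4.01 CPM per kilobase over all pools.

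A wider list of 67 other retinoid genes was examined, of which 60 had a row and 44 could be tested. None passed the threshold with edgeR, DESeq2 or limma-voom, and 4 of the 44 had an unadjusted p under 0.05, against 18.0% of all tested genes. Values were positive for 19 and negative for 25, with a median log2 fold change of -0.07, beside 0.00 over all tested genes. Among 16 enzymes listed as oxidising or reducing retinol or retinaldehyde, 12 had negative and 4 positive values, and the median was -0.19. Over all tested genes, 50.4% had positive values. This group was formed after the values were seen, and 2 of the 16 had an unadjusted p under 0.05 (edgeR). One of them, dhrs3b, a reductase that returns retinaldehyde to retinol, held 25.3 ± 4.29 CPM in wildtype and 19.0 ± 3.49 CPM in mutant pools (SD, n = 4; log2 fold change -0.41 ± 0.162, SE; adjusted p = 0.212). Its paralog dhrs3a, at 28.7 and 26.9 CPM, had a log2 fold change of -0.09, and rdh10b, the second rdh10 gene, had 0.19 at 10.6 and 12.1 CPM. The dehydrogenase gene rdh14a had 13.8 CPM in wildtype and 10.3 CPM in mutant pools (log2 fold change -0.42, adjusted p = 0.253).

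Carriers and cleavage enzymes showed no common direction. Of 8 binding and uptake proteins tested, 4 had positive and 4 negative values. The cellular retinoic acid binding protein gene crabp2a had the smallest p of the list, with 3.3, 1.84, 2.59 and 3.96 CPM in wildtype and 5.64, 4.76, 5.3 and 3.63 CPM in mutant pools. Only mutant replicate 4 fell within the wildtype range, and the log2 fold change was 0.72 ± 0.246 (SE; adjusted p = 0.157, edgeR). Its paralog crabp2b, at 24.4 and 34.7 CPM, had 0.50 ± 0.31 (SE). The cytochrome P450 gene cyp27c1, which in zebrafish converts vitamin A1 to vitamin A2, had 3.51 CPM in wildtype and 5.04 CPM in mutant pools (log2 fold change 0.52, adjusted p = 0.275; 0.34 without mutant replicate 1). The retinol carrier gene rbp4 was the most abundant binding protein, at 131.5 and 123.6 CPM, with a log2 fold change of -0.09.

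Further receptors and coregulators did not pass the test. The 5 other receptor genes tested (rxrab, rxrba, rxrbb, rxrga and rxrgb) had log2 fold changes between -0.39 and 0.26, and rargb had at most 8 reads in a pool. The 7 coregulators tested lay between -0.20 and 0.25. The retinol esterification genes lrata, lratb.1 and lratb.2, which store vitamin A, had at most 5 reads in any pool.

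A list of 53 genes reported elsewhere to respond to retinoic acid, mostly from work on embryos, had 51 rows and 29 tested genes. None passed the threshold with edgeR or limma-voom. Of the 29, 7 had an unadjusted p under 0.05 with a negative value and 1 with a positive value, while 8.6% of all tested genes had such a p on the negative and 9.42% on the positive side. The median log2 fold change was -0.14, with 18 negative and 11 positive values, while 50.4% of all tested genes had positive values. DESeq2 called 3 genes of the list lower, tbx5a, nr2f6b and meis3 (adjusted p = 0.0237, 0.0412 and 0.0214), and it called 2.15% of its 20039 genes lower.

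Several of the target genes with negative values are transcription factors of the developing heart. The gene tbx5a, a T-box factor required for heart formation, had 78.1, 99.8, 70.8 and 49.3 CPM in wildtype and 46.7, 55.9, 38.6 and 45.3 CPM in mutant pools. Wildtype replicate 4 lay among the mutant pools and the other wildtype pools above them. Its log2 fold change was -0.68 ± 0.194 (SE; adjusted p = 0.0984, edgeR), and without wildtype replicate 4 it was -0.84 (adjusted p = 0.0289). With any other pool left out tbx5a did not pass, and the values reached -0.50 without wildtype replicate 2 and an adjusted p of 0.259 without mutant replicate 3. The related gene tbx5b had 28.5 ± 5.31 CPM in wildtype and 21.4 ± 1.71 CPM in mutant pools (SD, n = 4; log2 fold change -0.42 ± 0.14, SE; adjusted p = 0.15). The factor gata5 had means of 231 CPM in wildtype and 162.1 CPM in mutant pools (log2 fold change -0.51, adjusted p = 0.166). For gata5 too, wildtype replicate 4, at 157.7 CPM, lay among the mutant pools, which held 136.7 to 177.1 CPM. Without that pool the log2 fold change was -0.67 (adjusted p = 0.0428, edgeR).

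The genes of the Nr2f (COUP-TF) orphan receptors did not pass edgeR's test. Of 5 tested, 4 had negative values. With all 8 pools, the log2 fold changes ran from -1.15, in a gene not described further here, to 0.25, with a median of -0.54. The gene nr2f6b had 31.0, 34.6, 25.6 and 10.8 CPM in wildtype and 11.4, 17.3, 11.6 and 15.1 CPM in mutant pools. Here too wildtype replicate 4 was apart from the other wildtype pools, as the lowest of all 8 pools. The log2 fold change of nr2f6b was -0.88 ± 0.294 (SE; adjusted p = 0.148), and -1.15 without wildtype replicate 4 (adjusted p = 0.0169). With any other pool left out nr2f6b did not pass, and the values reached -0.70 without wildtype replicate 2 and an adjusted p of 0.328 without mutant replicate 3. For nr2f2 and nr2f1a the log2 fold changes were -0.54 ± 0.211 and -0.51 ± 0.185 (SE), at 32.4 and 22.3 CPM and at 5 and 3.52 CPM in wildtype and mutant pools. The paralog nr2f6a had 0.25 ± 0.15 (SE).

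The gene meis3, a homeodomain factor, was the 1 target gene whose genotypes did not overlap, as was the case for 5.48% of all tested genes on the lower side. It was low, at 1.46, 0.998, 0.498 and 0.852 CPM in wildtype and 0.379, 0.182, 0.396 and 0.226 CPM in mutant pools, with a log2 fold change of -1.69 ± 0.474 (SE; adjusted p = 0.0917). This gene lies on chromosome 15, the chromosome of cox7a1, and the part of linkage to the mutated gene was not tested. Of the 5 meis genes tested, 4 had negative values, and 1 had an unadjusted p under 0.05 (edgeR). Their median log2 fold change was -0.07 and the highest was 0.09. Of 21 hox genes with a row, the classical targets of retinoic acid in the embryo, 7 could be tested, with values between -0.82 and 0.59, and the others had at most 17 reads in a pool. The target gene with an unadjusted p under 0.05 and a positive value was the transglutaminase gene tgm2b, with 121.7 CPM in wildtype and 159.8 CPM in mutant pools (log2 fold change 0.39 ± 0.154, SE; adjusted p = 0.208).

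**Figure D5:**
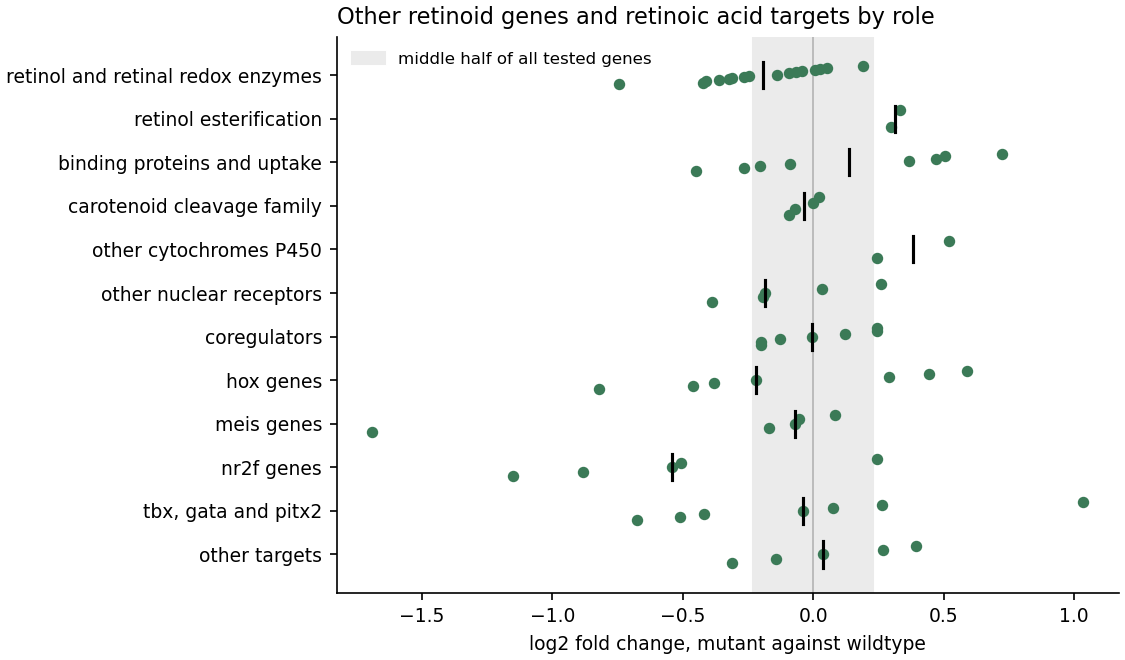
Each point is the log2 fold change (x axis, mutant against wildtype) of 1 tested gene in the wider retinoid list or the target list, grouped by role, with a black line at each group's median. The grey band marks the middle of the distribution of all tested genes, between its quartiles. Group medians run from -0.54 for the 5 nr2f genes to 0.38 for the 2 other cytochromes P450. The enzymes listed as oxidising or reducing retinol or retinaldehyde have a median of -0.19. The groups were formed after the values were seen.

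Neither tested neighbour of cyp26b1 passed the threshold. Chromosome 15, which carries cox7a1, holds none of the 10 members. The 3 members aldh1a3, cyp26b1 and aldh1a2 lie on chromosome 7, with 15.5 megabases between the first pair and 4.98 between the second. The nearest tested neighbours of cyp26b1 are EXOC6B, an exocyst subunit gene that ends 29638 bases before it, and DYSF, the dysferlin gene that lies 209678 bases beyond its end. Their levels were 36.5 and 38.5 CPM for EXOC6B and 90.1 and 88.8 CPM for DYSF in wildtype and mutant pools, with log2 fold changes of 0.07 ± 0.11 and -0.02 ± 0.139 (SE). A transcript on the opposite strand, si:ch73-156h21.1, overlaps the end of cyp26b1 and had at most 0.416 CPM in a pool, and reads were counted by strand.

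The genes whose pattern over the 8 pools was most like that of cyp26b1 were sought among 11784 genes by the root mean square difference of standardised log2 levels. The nearest were TET2 (0.225), sfrp2l (0.239), CETN1 (0.251), AMBRA1 (0.287) and dpep2 (0.292). They were chosen for their likeness, so their own lower levels in mutant pools are a description only. The log2 fold changes were -0.42 for TET2, a DNA demethylase, -1.13 for sfrp2l, -0.59 for CETN1, -0.40 for AMBRA1, an autophagy regulator, and -0.65 for dpep2. Of these, sfrp2l lies on chromosome 15, the chromosome of cox7a1, and the part of linkage to the mutated gene was not tested.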

How the data were processed

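The deposited values are raw counts per gene, summed by the authors over exons of Ensembl 109 on GRCz11 by featureCounts 2.0.3 with strand setting 2, per the file headers. The submitters' processing notes also list fastp, STAR, FastQC and MultiQC. Columns were matched to pools by the library names in the labels (0 columns unused). The 10 members and the lists were chosen with earlier results of these data known. Gene rows were matched by symbol, except cyp26b1, which was taken by its gene ID. Paralogs with 1 shared symbol were told apart by chromosome in a RefSeq table of assembly GRCz12tu, in which 16839 of 16921 unique symbols lay on the same chromosome as here. Genes were filtered with filterByExpr (minimum count 10), which left 17949, scaled with TMM and tested with edgeR 4.0.16 (R 4.3.3), genotype as the only term, at an adjusted p of 0.05. The log2 scale used a prior count of 2, and SE is the log2 fold change over the square root of F. Levels between genes are per kilobase of deposited exon length. The fit was tested on simulated data. Named outside the lists by rule were neighbours of called members and the 5 genes most like them, and further list members were named, and lists grouped by role, after their values were seen. Alternatives were DESeq2 1.42.0, limma-voom (limma 3.58.1), other scaling and filters, a replicate block, a surrogate variable (sva 3.50.0), a length trend removed (lowess span 0.3), a threshold of 0.1 and each pool left out. P-values measure the spread between pools. No sequences are shown.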

Additional observations from a re-analysis of the deposited data

Results flagged for a closer look

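Of 53 groups of 4 pools examined for the named genes, 4 had 1 pool far from the other 3, and chance alone flags about 1 group in 20. That rate does not apply to aldh1a3 and cyp26c1, where a single pool with reads among pools at 0 is always flagged. For cyp26b1, wildtype replicate 2 held 87.6 CPM against 44.0 to 51.4 CPM in the other wildtype pools. For rdh14a, wildtype replicate 4 held 9.84 CPM against 14.8 to 15.7 CPM. For aldh1a3, mutant replicate 2 held 0.101 CPM, which is 5 reads, and the other mutant pools held none. For cyp26c1, mutant replicate 1 held 0.0669 CPM, which is 3 reads, and the other mutant pools held none.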

How the results depend on the processing

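Lower levels of cyp26b1 in mutants kept their direction in all 18 alternatives and their call in 11. The number of members called lower fell from 1 to 0 with library totals alone, and ranged from 0 to 1 with each pool left out. Target genes called lower numbered 3 with DESeq2, 2 at a threshold of 0.1 and 0 to 3 with each pool left out, against 0. Over all genes, 205 were called higher and 158 lower, against 60 and 97 with library totals alone, 569 and 431 with DESeq2, 502 and 390 at a threshold of 0.1, and 29 to 273 and 37 to 200 with each pool left out. Whether the title numbers pair the pools was not clear. Deviations from the genotype means correlated at 0.246, -0.071, 0.036 and -0.066 between pools of the same number, for numbers 1 to 4. Between pools of unlike number the correlations ran from -0.203 to 0.143, so only the value of number 1 lay above that range. With a replicate block, 126 genes were higher and 84 lower, and cyp26b1 had an adjusted p of 0.0496. Values near 0 changed sign with a pool left out: raraa from -0.11 to 0.044, rarab from -0.063 to 0.11, rxraa from -0.18 to 0.15 and DYSF from -0.10 to 0.083 log2 units. With a surrogate variable rxraa stood at 1.2e-05. In a fit of 25426 genes with no filter, cyp26a1, cyp26c1 and aldh1a3 had adjusted p-values of 0.934, 0.667 and 0.445. The causes were not tested.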
